A study of Mus musculus with 12 samples.

Results

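Apoptosis regulators of the BCL2 family, the proteins that set whether a cell opens its mitochondrial outer membrane and dies, were followed through every library of the series. The members were found by their full names in the deposited table, and the 10 genes BCL2, BCL2L1, MCL1, BAX, BAK1, BBC3, PMAIP1, BCL2L11, BID and BAD were all matched among its 58735 genes. All 10 also reached the mean of 0.5 FPKM over the libraries that was required for testing, as did 17538 genes in all. FPKM, the unit of every level given here, counts the fragments on a gene per kilobase of its length, scaled to the library size that the authors used.

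RNA was taken from U2OS, a human osteosarcoma cell line, in 12 libraries that form 4 groups of 3 replicates. The groups were blank cells, cells with the siRNA siSRSF1-2, cells with the siRNA siSRSF1-3, and cells in which the long non-coding RNA LINC01134 was upregulated (OE-LINC01134). Both siRNAs are directed against SRSF1, an SR protein that guides the choice of splice sites. The groups share the line and differ only in these agents, the labels give no dose or time, and no library with a control siRNA or an empty vector was among the samples, so transfection and siRNA cannot be told apart. The labels name mouse as the organism, whereas the genes of the table carry human Ensembl identifiers. The methods of the study place transient transfection in HOS, another osteosarcoma line, and give an siRNA concentration and a harvest time there. They mention fewer biological replicates per condition than there are libraries, whereas a figure caption of the study mentions 3 experimental repeats in U2OS. The labels do not say that replicates came from separate cultures, so the p-values measure only the spread between these libraries, which may be technical.

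In healthy and malignant cells the family works by binding. BCL2, BCL2L1 (BCL-XL) and MCL1 hold back the effectors BAX and BAK1, which otherwise assemble into pores in the mitochondrial outer membrane and release cytochrome c. BH3-only proteins such as BBC3 (PUMA), PMAIP1 (NOXA), BCL2L11 (BIM), BID and BAD occupy the anti-apoptotic members or engage the effectors directly, and many of them are transcribed in answer to stress. Several members, among them BCL2L1, MCL1 and BCL2L11, give splice forms that differ in activity, and FPKM per gene do not separate these forms.

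Reads on genes numbered 26237763 to 32954539 in a library. SRSF1 was lower in each siRNA library (3.33 to 7.90 FPKM) than in each blank library (19.8 to 35.9 FPKM), and LINC01134 was at 878 to 1279 FPKM in the OE-LINC01134 libraries against 0.497 to 0.791 FPKM in blank cells. Several libraries stood apart from the others of their group. Chi-square values per gene between replicates were 3.21 for blank replicates 2 and 3 but 89.6 and 93.7 for blank replicate 1 against them, 2.28 for OE-LINC01134 replicates 1 and 3 but 85.7 and 88.4 for replicate 2 against them, 2.88 to 3.68 among the siSRSF1-2 libraries, and 165 to 581 among the siSRSF1-3 libraries. The low values, 2.28 to 3.68, lie above the 1 that counting noise alone would give, though far below the rest. Separate cultures cannot be told apart here from repeat libraries of one culture. Each library was counted as 1 sample. Genes of ribosomal proteins took 18.5% of the reads in siSRSF1-3 replicate 1 and 13.3% in replicate 2, against 6.17% to 7.79% in the remaining libraries. Of the mesenchymal markers 7 of 8 reached 0.5 FPKM in at least 1 library (COL1A2 did not), with a summed level of 184 to 478 FPKM. The leukocyte markers PTPRC and CD3E and the endothelial markers PECAM1 and CDH5 stayed below 0.5 FPKM in each library, and the epithelial markers summed to 1.36 to 3.14 FPKM.

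In blank cells MCL1 stood highest, with 93.3 ± 7.45 FPKM (SD, n = 3), and BCL2 lowest, with 1.35 ± 0.429 FPKM (SD, n = 3). PMAIP1 (80.6 ± 9.79 FPKM), BAX (74.8 ± 2.41 FPKM) and BCL2L1 (69.1 ± 15.5 FPKM) followed MCL1, each with n = 3, and within these first 4 genes each neighbour in the order overlapped the next. Below them came BAK1 (29.5 ± 2.65 FPKM), BAD (16.3 ± 2.69 FPKM), BBC3 (11.7 ± 1.27 FPKM), BID (6.47 ± 0.775 FPKM) and BCL2L11 (2.53 ± 0.714 FPKM), and from BCL2L1 downward no neighbours overlapped in the blank libraries. The low place of BCL2 was shared by all 12 libraries, where it ranked 10 of 10, and BCL2L11 ranked 9 in each. MCL1 ranked first in every siSRSF1-2 and OE-LINC01134 library. The reads behind these levels ran from 158 for BCL2L11 in siSRSF1-3 replicate 1 to 19125 for MCL1 in siSRSF1-2 replicate 3.

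**Figure D1:**
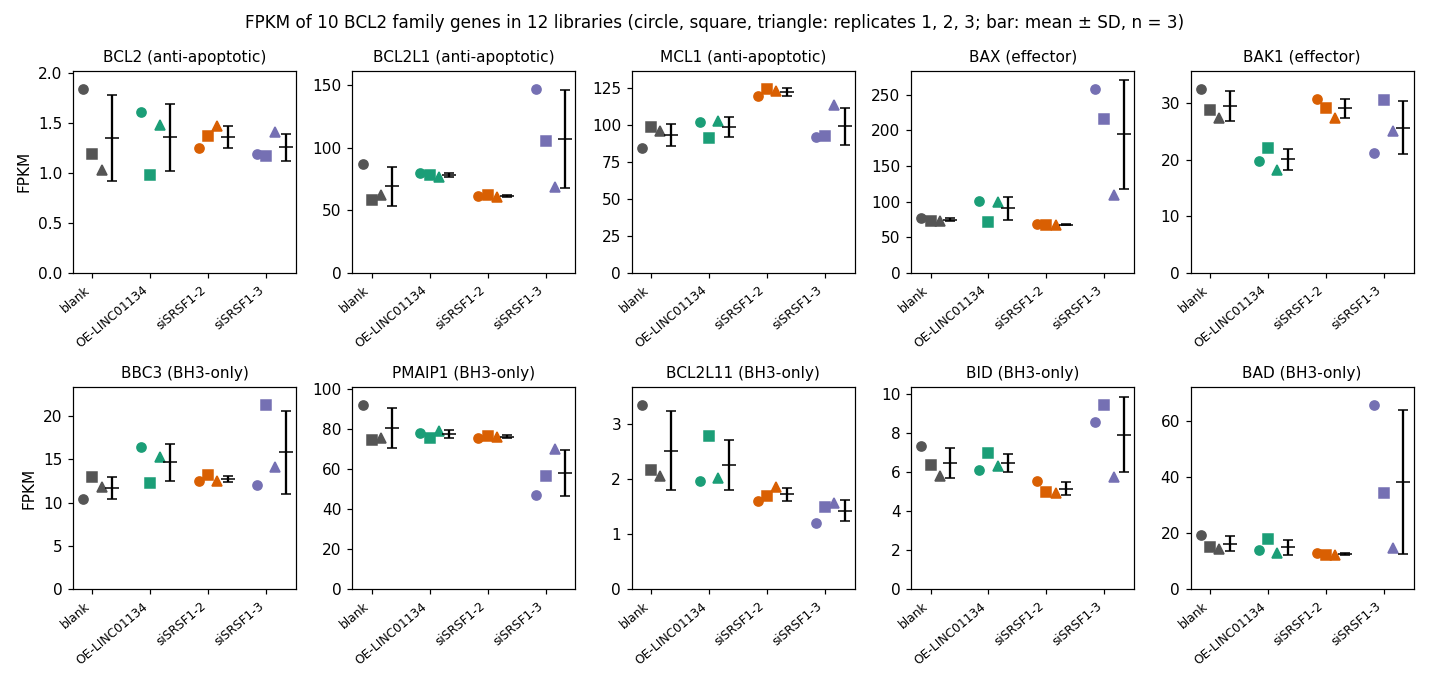
FPKM of each member (vertical axis, from 0, with its own scale per panel) in the 12 libraries, by group on the horizontal axis. Circles, squares and triangles mark replicates 1, 2 and 3, and the bar beside them gives the mean ± SD (n = 3); MCL1 in the siSRSF1-2 libraries (120 to 124 FPKM) lies above the blank libraries (84.8 to 98.9 FPKM), and BAX in siSRSF1-3 runs from 109 to 258 FPKM.

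The comparisons asked how the family responded to either siRNA against SRSF1 and to LINC01134. With siSRSF1-2, MCL1 rose 1.32-fold and the other 9 members did not pass the test. That is 1 member higher and 0 lower out of 10, beside 14.0% of all tested genes called higher, 12.8% called lower and 26.8% called in either direction (limma, Benjamini-Hochberg adjusted p under 0.05). With siSRSF1-3, 0 of 10 members passed limma's test, beside 1.28% of all genes, although BAX had the highest fold of the family at 2.44-fold above blank cells. With OE-LINC01134, 0 of 10 passed, beside 1.18% of all genes, and BAK1 was 1.47-fold lower. Between the siRNAs 0 of 10 passed, beside 0.0855% of all genes. No member that passed also had a log2 fold change beyond 1 in size in any of the 4 comparisons, where 4.95%, 1.26%, 0.850% and 0.0855% of all genes did, in the same order. At an unadjusted p under 0.05 the members counted 5, 2, 1 and 4, beside 40.3%, 28.8%, 26.3% and 42.1% of all genes. The 3 comparisons with blank cells share their control libraries, and the comparison between the siRNAs shares its libraries with 2 of them.

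The groups of libraries did not overlap for 5 members with siSRSF1-2 (49.5% of all tested genes), for 3 members with siSRSF1-3 (37.2%), for 1 member with OE-LINC01134 (30.6%) and for 7 members between the siRNAs (54.6%). With siSRSF1-2 the 5 were MCL1, higher (25.3% of all genes), and BAX, BCL2L11, BID and BAD, lower (24.2%). With siSRSF1-3 they were BAX, higher (19.2%), and PMAIP1 and BCL2L11, lower (18.0%). With OE-LINC01134 it was BAK1, lower (13.8%), with 0 members higher (16.8%). Between the siRNAs BCL2L1, BAX, BID and BAD were higher with siSRSF1-3 (27.0%) and MCL1, PMAIP1 and BCL2L11 lower (27.6%). The shares of members were not tested against those of all genes, and 3 libraries against 3 cannot give an exact permutation p below 0.1. In bulk RNA, fewer cells that express a gene and less of its RNA per cell cannot be told apart.

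**Figure D2:**
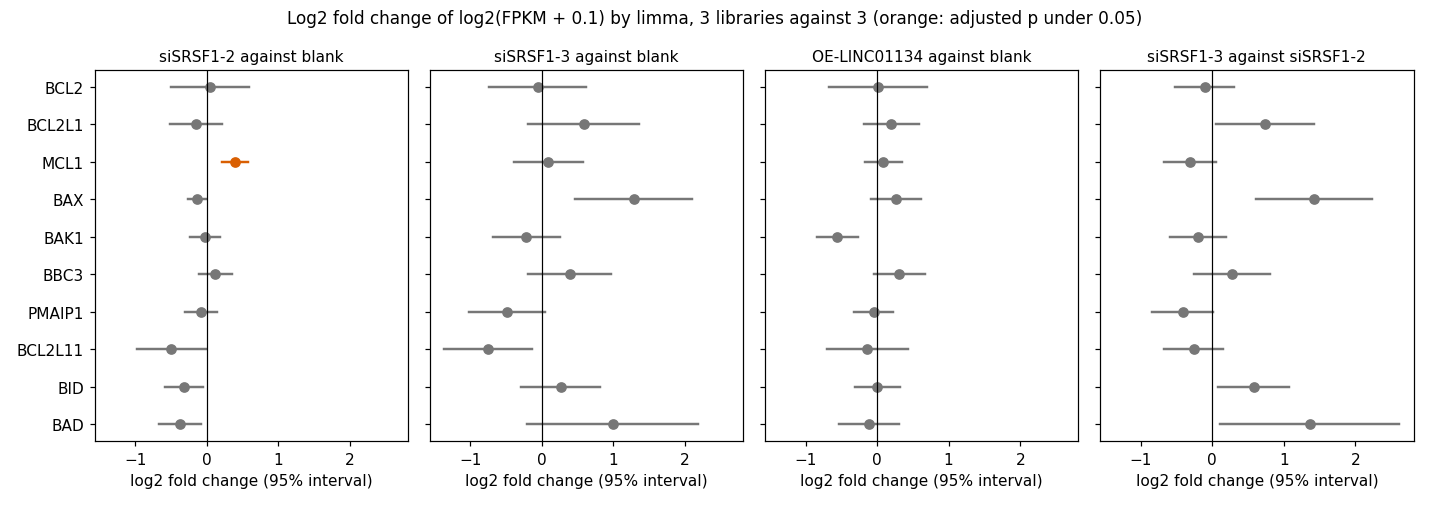
Log2 fold change of log2(FPKM + 0.1) for each member (horizontal axis) with its 95% interval from limma, in the 4 comparisons of 3 libraries against 3. MCL1 with siSRSF1-2 (log2 fold change 0.40, interval 0.22 to 0.57) is drawn in orange as the one value with an adjusted p under 0.05, and BAX with siSRSF1-3 (1.28, interval 0.47 to 2.10) lies farthest from 0 among the comparisons with blank cells.

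Among the anti-apoptotic members, MCL1 (ENSG00000143384; chromosome 1, 150574551 to 150579738) encodes a short-lived protein that sequesters BAK1, BCL2L11 and PMAIP1. The genome build is not given in the sources used here for human genes (the labels name a mouse build), so this position and those of the other members are as deposited. MCL1 was at 84.8, 98.9 and 96.1 FPKM in blank cells, 120, 124 and 123 FPKM with siSRSF1-2, 91.8, 92.4 and 114 FPKM with siSRSF1-3, and 102, 91.3 and 103 FPKM with OE-LINC01134. The siSRSF1-2 libraries were the highest of all 12 and did not overlap any other group. MCL1 rose with siSRSF1-2 by a log2 fold change of 0.40 (standard error, SE, 0.0726, limma adjusted p = 0.0123), and its interval lay between 0.22 and 0.57. Without siSRSF1-2 replicate 1, 2 or 3 the log2 fold change was 0.41, 0.39 and 0.39 and the adjusted p from limma was 0.0511, 0.0628 and 0.0623. The call was thus lost with each of these omissions, while the calls over all genes fell from 4702 to 2117, 1875 and 1830. With the siSRSF1-2 libraries averaged to 1, in one fit over all 4 groups, the log2 fold change was 0.40, and this design of 1 sample in an arm called only 1 of all 17538 genes. The differences with siSRSF1-3 (log2 fold change 0.09, adjusted p = 0.789) and with OE-LINC01134 (0.08, adjusted p = 0.645) did not pass limma's test. Directly compared, MCL1 was lower with siSRSF1-3 than with siSRSF1-2, by a log2 fold change of -0.31 (interval -0.67 to 0.05, limma adjusted p = 0.156), which did not pass either.

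BCL2L1 (ENSG00000171552; chromosome 20, 31664452 to 31723989), which encodes BCL-XL, was at 86.9, 58.3 and 62.1 FPKM in blank cells and at 147, 105 and 68.7 FPKM with siSRSF1-3. With siSRSF1-2 it was at 61.4, 61.9 and 60.5 FPKM, and with OE-LINC01134 at 80.0, 78.0 and 76.3 FPKM. Blank replicate 1 lay above siSRSF1-3 replicate 3, so those groups overlapped, while each siSRSF1-3 library lay above each siSRSF1-2 library. The log2 fold change was 0.58 with siSRSF1-3 (interval -0.19 to 1.36, adjusted p = 0.261), -0.15 with siSRSF1-2 (adjusted p = 0.495), 0.20 with OE-LINC01134 (adjusted p = 0.457) and 0.74 between the siRNAs (interval 0.05 to 1.42, adjusted p = 0.107), all from limma and none past the threshold. With siSRSF1-3 it was 0.32 without replicate 1 and 0.87 without replicate 3, and with siSRSF1-2 it turned to 0.025 without blank replicate 1. BCL2 itself (ENSG00000171791; chromosome 18, 63123346 to 63320128), the founding anti-apoptotic member, lay between 0.98 and 1.84 FPKM in all 12 libraries, on 274 to 612 reads. Its groups overlapped in each comparison, and its log2 fold changes lay between -0.11 and 0.05, with adjusted p of 0.628 to 0.981 from limma. The interval for siSRSF1-2 reached from -0.50 to 0.59, so a change of this size in BCL2 could not be told from none.

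Of the effectors, BAX (ENSG00000087088; chromosome 19, 48954815 to 48961798) moves from the cytosol to the mitochondria when a cell is stressed. It was at 77.6, 73.3 and 73.4 FPKM in blank cells and at 258, 216 and 109 FPKM with siSRSF1-3. The 3 siSRSF1-3 libraries were the highest of the 12, with replicate 3 closer to the blank cells than to replicates 1 and 2. The log2 fold change was 1.28 (SE 0.345, limma adjusted p = 0.0917), which did not pass the threshold, whereas without siSRSF1-3 replicate 3 it was 1.66 (limma adjusted p = 0.00982). Over the 21 alternatives it stayed between 0.84 and 1.66, with adjusted p from 0.00982 to 0.300. With siSRSF1-2 BAX was at 68.9, 67.3 and 67.2 FPKM, each below each blank library, a log2 fold change of -0.14 (limma adjusted p = 0.0941). Between the siRNAs the log2 fold change was 1.43 (SE 0.332, limma adjusted p = 0.0772). In the OE-LINC01134 libraries BAX was at 101, 72.1 and 99.5 FPKM, with replicate 2 below each blank library and the other two above them (log2 fold change 0.26, limma adjusted p = 0.300).

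BAK1 (ENSG00000030110; chromosome 6, 33572547 to 33580293), the effector that resides on mitochondria, was the member that stood apart with OE-LINC01134. It was at 19.9, 22.0 and 18.3 FPKM there, against 32.5, 28.7 and 27.4 FPKM in blank cells. The groups did not overlap, and the log2 fold change was -0.56 (SE 0.120, limma adjusted p = 0.0687), short of the threshold. Without OE-LINC01134 replicate 2 it was -0.63 (adjusted p = 0.0169) and without blank replicate 1 -0.49 (limma adjusted p = 0.0417). With siSRSF1-2 BAK1 was at 30.8, 29.1 and 27.4 FPKM, and with siSRSF1-3 at 21.3, 30.6 and 25.1 FPKM. Both groups overlapped the blank cells, with log2 fold changes of -0.02 (interval -0.23 to 0.19, adjusted p = 0.892) and -0.22 (interval -0.69 to 0.26, limma adjusted p = 0.477). Its pseudogenes held at most 31 and 16 reads in a library against 922 or more for BAK1, and the sources used here do not say how reads that match both were assigned.

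Of the BH3-only genes, PMAIP1 (ENSG00000141682; chromosome 18, 59899948 to 59904306), whose product NOXA binds MCL1, was at 91.9, 74.5 and 75.4 FPKM in blank cells and at 47.2, 56.5 and 70.1 FPKM with siSRSF1-3. Each siSRSF1-3 library was below each blank library, a log2 fold change of -0.49 (SE 0.225, limma adjusted p = 0.194), which did not pass the threshold. It passed without siSRSF1-3 replicate 3 (log2 fold change -0.63, limma adjusted p = 0.0413). The 3 siSRSF1-2 libraries (75.5 to 76.8 FPKM) and the OE-LINC01134 libraries (75.4 to 79.1 FPKM) lay within the blank range, with log2 fold changes of -0.07 and -0.05.

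BCL2L11 (ENSG00000153094; chromosome 2, 111119378 to 111168447), whose product BIM binds all anti-apoptotic members, was low throughout. It was at 3.35, 2.17 and 2.06 FPKM in blank cells, 1.61, 1.70 and 1.86 FPKM with siSRSF1-2, and 1.21, 1.50 and 1.58 FPKM with siSRSF1-3. Each siRNA library lay below each blank library, and blank replicate 1 stood above the other blank libraries. The log2 fold changes were -0.49 with siSRSF1-2 (SE 0.198, adjusted p = 0.117) and -0.76 with siSRSF1-3 (SE 0.259, limma adjusted p = 0.126), neither past the threshold. Without blank replicate 1 they were -0.28 and -0.54. The gene lies whole inside MIR4435-2HG on the opposite strand, which had 1808 to 3478 reads against 158 to 617 for BCL2L11, and the sources used here do not say whether counting used the strand.

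BAD (ENSG00000002330; chromosome 11, 64269830 to 64284704), held inactive by phosphorylation in cells with growth factor signals, had the widest spread of the family. It was at 19.4, 14.9 and 14.6 FPKM in blank cells and at 65.8, 34.3 and 14.8 FPKM with siSRSF1-3. Replicates 1 and 2 of siSRSF1-3 lay above each blank library and replicate 3 lay among them, which gave a log2 fold change of 0.99 (interval -0.20 to 2.19, limma adjusted p = 0.224). Without siSRSF1-3 replicate 3 it was 1.55 (adjusted p = 0.0182) and without replicate 1 it was 0.48. With siSRSF1-2 BAD was at 12.8, 12.3 and 12.3 FPKM, each below each blank library (log2 fold change -0.37, SE 0.120, limma adjusted p = 0.0672). With OE-LINC01134 it was at 14.1, 18.1 and 12.9 FPKM and overlapped the blank cells (log2 fold change -0.12, adjusted p = 0.699). BAD shares 14643 bases of its span with GPR137 on the opposite strand, which had 1559 to 2342 reads against 622 to 2202 for BAD.

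BID (ENSG00000015475; chromosome 22, 17734138 to 17774770), cut by caspase-8 to link death receptors with mitochondria, was at 7.30, 6.34 and 5.77 FPKM in blank cells. It was at 5.55, 4.97 and 4.92 FPKM with siSRSF1-2 and at 8.56, 9.40 and 5.76 FPKM with siSRSF1-3. The siSRSF1-2 libraries lay below each blank library, a log2 fold change of -0.32 (SE 0.109, limma adjusted p = 0.0781). With siSRSF1-3 replicates 1 and 2 lay above the blank cells and replicate 3 just below them (log2 fold change 0.26, adjusted p = 0.459), and the difference between the siRNAs was 0.58 (limma adjusted p = 0.0961). BBC3 (ENSG00000105327; chromosome 19, 47220822 to 47232766), which encodes PUMA, ranged from 10.4 to 12.9 FPKM in blank cells, 12.4 to 13.1 FPKM with siSRSF1-2, up to 21.2 FPKM with siSRSF1-3 and 12.2 to 16.4 FPKM with OE-LINC01134. All of these groups overlapped the blank cells, and the highest log2 fold change was 0.39 with siSRSF1-3 (interval -0.19 to 0.97, limma adjusted p = 0.306). Replicate 2 held the value of 21.2 FPKM, and without it the log2 fold change of BBC3 was 0.16, against 0.56 without replicate 1.

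The libraries with siSRSF1-3 were not alike. Without replicate 3, 4 members passed the test against blank cells (BAX, BCL2L1 and BAD higher, PMAIP1 lower), and 6292 of all genes passed in place of 224. Without replicate 1 or replicate 2, 0 members passed, and 13 and 0 of all genes. Against siSRSF1-2 the count without siSRSF1-3 replicate 3 was 6 (BAX, BAD, BCL2L1 and BID higher, MCL1 and PMAIP1 lower), with 10731 of all genes in place of 15. Without blank replicate 1, 4 members passed with siSRSF1-2 (MCL1 higher, and BAX, BID and BAD lower) and 2 with OE-LINC01134 (BCL2L1 higher and BAK1 lower), with 9147 and 2441 of all genes in place of 4702 and 207. Without OE-LINC01134 replicate 2, 2 members passed in that comparison (BAX higher and BAK1 lower), with 4467 of all genes.

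Levels of genes in siSRSF1-3 replicates 1 and 2 also differed with gene length. Genes of 1000 to 2000 bases had a median difference from the blank mean of 0.60 and 0.47 on the log2 scale in these replicates, and genes of 8000 bases or more had -0.41 and -0.34, while in replicate 3 the medians were 0.07 and 0.02. BAX, with 2587 bases, differed by 1.78, 1.53 and 0.54 in replicates 1 to 3, where genes of 2000 to 3000 bases had medians of 0.39, 0.32 and 0.03 and an upper quartile of 1.12, 0.80 and 0.33. It was thus above the upper quartile of genes of its length in each library. PMAIP1 (2235 bases) was at -0.76, -0.50 and -0.19, below the lower quartile of the same genes in replicates 1 and 2 (-0.32 and -0.22) but not in replicate 3 (-0.32). BCL2L11, a long gene of 6658 bases, was below the lower quartile of genes of 5000 to 8000 bases in each library. BAD, the shortest member with 1708 bases, was above the upper quartile of genes of its length in replicates 1 and 2 and below their median in replicate 3. With the trend on length removed, the log2 fold changes with siSRSF1-3 were 1.11 for BAX, 0.74 for BAD, 0.52 for BCL2L1, -0.71 for PMAIP1 and -0.61 for BCL2L11, and 0 members passed limma's test. The part of RNA quality or library preparation in these values was not tested.

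**Figure D3:**
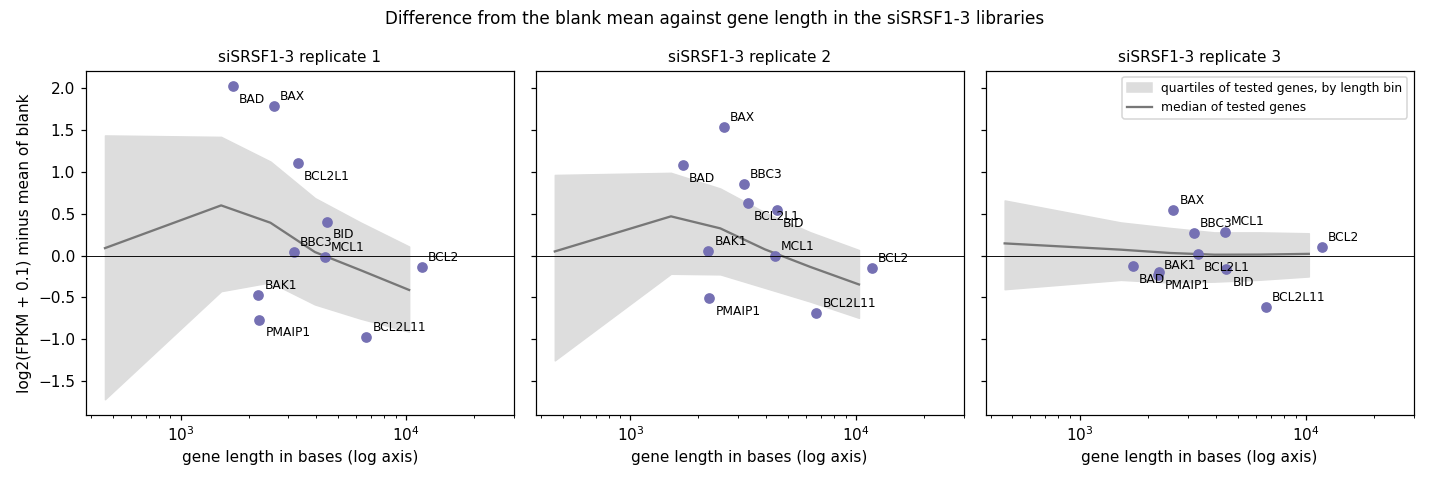
Difference of each member from the blank mean on the log2(FPKM + 0.1) scale (vertical axis) against gene length in bases (horizontal log axis) in the 3 siSRSF1-3 libraries. The grey line is the median and the grey band the quartiles of all tested genes by length bin; BAX lies above the band in each panel, and BAD lies above it in replicates 1 and 2 (2.02 and 1.08) and at -0.12 in replicate 3.

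Ratios between members were then read within each library, where the scaling of the library cancels but a difference with gene length does not. In siSRSF1-3 replicates 1 and 2, genes of 2000 to 3000 bases, as BAX and PMAIP1, had medians of 0.39 and 0.32 above the blank mean. For genes of 3000 to 5000 bases, as MCL1 and BCL2L1, the medians were 0.04 and 0.07. The part of gene length in the ratios was not tested. The ratio of BAX to MCL1 was 0.807 ± 0.0940 (SD, n = 3) in blank cells, 0.554 ± 0.0187 with siSRSF1-2, 2.04 ± 0.963 with siSRSF1-3 and 0.914 ± 0.108 with OE-LINC01134. Each siSRSF1-2 library (0.541 to 0.575) was below each blank library (0.742 to 0.915), and each siSRSF1-3 library (0.957 to 2.81) was above. For BAX to BCL2L1 the siSRSF1-2 libraries (1.09 to 1.12) lay within the blank range (0.892 to 1.26), while the siSRSF1-3 libraries were at 1.58 to 2.05, above each blank library. PMAIP1 to MCL1 was 0.874 ± 0.182 in blank cells, 0.622 ± 0.00746 with siSRSF1-2 and 0.581 ± 0.0581 with siSRSF1-3 (SD, n = 3). Both siRNA groups lay below each blank library for this ratio, and also for BCL2L11 to MCL1, which was 0.0276 ± 0.0103 in blank cells, 0.0141 ± 0.000875 with siSRSF1-2 and 0.0144 ± 0.00160 with siSRSF1-3. These ratios are descriptions with no test, and they share the blank libraries.

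**Figure D4:**
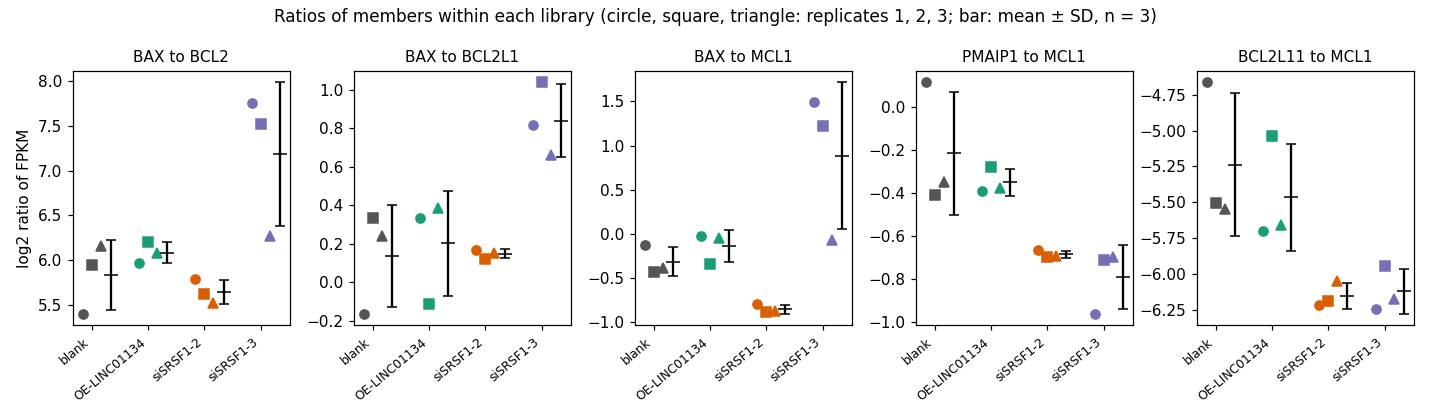
Log2 ratio of FPKM of the named pairs within each library (vertical axis, own scale per panel), by group. Circles, squares and triangles mark replicates 1, 2 and 3, and the bar gives the mean ± SD (n = 3); BAX to MCL1 lies at -0.85 ± 0.05 with siSRSF1-2, below the blank cells (-0.32 ± 0.16), and at 0.88 ± 0.83 with siSRSF1-3.

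As shares of the summed FPKM of the 10 members, the anti-apoptotic genes held 41.7% to 43.1% in blank cells, 46.8% to 47.8% with siSRSF1-2, 43.6% to 44.8% with OE-LINC01134 and 35.0% to 43.3% with siSRSF1-3. MCL1 alone held 30.7% to 31.8% with siSRSF1-2 against 20.4% to 26.6% in blank cells. The effectors held 26.5% to 27.5% in blank cells and 31.6% to 43.4% with siSRSF1-3, where BAX gave 25.6% to 39.4%, while the siSRSF1-2 libraries (24.4% to 25.5%) lay below each blank library. BH3-only genes held 29.6% to 31.8% in blank cells, 27.7% to 27.8% with siSRSF1-2, 27.7% to 30.4% with OE-LINC01134 and 20.6% to 25.1% with siSRSF1-3. Their summed level with siSRSF1-3 (106 to 135 FPKM) nevertheless overlapped that in blank cells (110 to 132 FPKM). The summed level itself was 370 to 416 FPKM in blank cells and 424, 569 and 653 FPKM in siSRSF1-3 replicates 3, 2 and 1. The FPKM of all genes summed to 301921 to 324607 in blank cells and to 302504, 410612 and 611084 in the same siSRSF1-3 replicates. Over the 12 libraries MCL1 was among the steadiest genes, with an SD on the log2 scale of 0.19 that only 5.26% of tested genes undercut, whereas 71.7% had a smaller SD than BAX (0.66) and 76.5% a smaller one than BAD (0.72).

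The other genes of the pathway were read from 5 lists of 62 genes, of which 49 were tested. With siSRSF1-2, 3 of 6 tested inhibitors of apoptosis rose and 0 fell, beside 14.0% and 12.8% of all genes, with a median log2 fold change of 0.48 beside 0.02 over all genes. They were BIRC7 (from 2.52 to 8.67 FPKM, log2 fold change 1.74, limma adjusted p = 0.000698), BIRC6 (0.70, adjusted p = 0.00441) and XIAP (0.34, limma adjusted p = 0.0375), and XIAP is known to bind and block caspases directly. Of the 6 inhibitors, 4 had a log2 fold change above 0 and 2 below. BIRC5, the inhibitor with the highest FPKM, was at 37.5 to 39.0 FPKM against 45.6 to 69.1 FPKM in blank cells. It was lower without overlap, as were 24.2% of all genes, and did not pass. Of the apoptosome and caspase genes 1 of 13 rose and 2 fell (median -0.25), and of the death receptor genes 0 of 7 rose and 2 fell (median -0.19), beside 26.8% of all genes called in either direction. Of the other BCL2 family genes 1 of 9 rose and 3 fell (median -0.05), the latter with BCL2L12 (log2 fold change -0.43, limma adjusted p = 0.00725). BOK fell as well (log2 fold change -0.37, limma adjusted p = 0.00743) and passed with each single library left out. In one fit over all 4 groups BOK did not pass. HRK, a BH3-only gene, was at 5.65 to 6.44 FPKM against 2.56 to 3.79 FPKM in blank cells, higher without overlap (25.3% of all genes).

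Of the genes that regulate members, 4 of 14 rose and 3 fell with siSRSF1-2 (median 0.03), again beside 14.0% and 12.8% of all genes. USP9X, a deubiquitinase that stabilises the MCL1 protein, rose 1.67-fold to 18.4 FPKM (log2 fold change 0.74, limma adjusted p = 0.00223). HUWE1 and FBXW7, which belong to ubiquitin ligases that mark MCL1 for degradation, rose as well (0.31, adjusted p = 0.0457, and 0.55, limma adjusted p = 0.0116). ATF4, a stress transcription factor, fell from 302 to 231 FPKM (log2 fold change -0.38, limma adjusted p = 0.00497). VDAC2, which recruits BAK1 to mitochondria, fell by 0.42 on the log2 scale (limma adjusted p = 0.00806). Levels in the siSRSF1-2 libraries differed with gene length as well. Genes of 8000 bases or more had medians of 0.15 to 0.17 above the blank mean there, with upper quartiles of 0.39 to 0.44, and genes of 2000 to 3000 bases had medians of -0.10 to -0.08. XIAP, FBXW7, USP9X, HUWE1 and BIRC6 are 9025 to 17858 bases long, and the differences of XIAP and HUWE1 lay below those upper quartiles. With the trend on length removed, HUWE1 (0.096, adjusted p = 0.372) and XIAP (0.25, limma adjusted p = 0.117) no longer passed, while USP9X (0.56), BIRC6 (0.48), FBXW7 (0.41) and VDAC2 (-0.31) did. HUWE1 and XIAP also did not pass when any single library other than blank replicate 1 was left out (adjusted p of 0.0609 to 0.159), nor did FBXW7 without siSRSF1-2 replicate 2 or 3 (limma adjusted p = 0.0605 in both).

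With siSRSF1-3, 0 of the 49 pathway genes passed the test, beside 1.28% of all genes. The genes with the smallest p were HRK, a BH3-only gene (log2 fold change 1.08, adjusted p = 0.0636), APAF1, the core of the apoptosome (-2.22, adjusted p = 0.0659), BIRC7 (1.97, adjusted p = 0.0664), BAG1 (1.15, adjusted p = 0.0968) and CASP8 (-0.72, adjusted p = 0.104, all from limma). All 5 passed without siSRSF1-3 replicate 3, as did 6292 of all genes. APAF1 was low, at 0.142 to 0.734 FPKM on 22 to 181 reads with siSRSF1-3, against 1.64 to 1.92 FPKM in blank cells. Its length is 7908 bases, and genes of 5000 to 8000 bases had medians of -0.17 and -0.14 in siSRSF1-3 replicates 1 and 2. With OE-LINC01134, 0 pathway genes rose and 2 fell (1.18% of all genes passed), namely BOK, a BAX-like member (from 23.6 to 14.6 FPKM, log2 fold change -0.70, adjusted p = 0.0486), and ENDOG, a mitochondrial nuclease (log2 fold change -1.21, limma adjusted p = 0.0485). Without blank replicate 2 or 3 or OE-LINC01134 replicate 1 or 3 neither passed, with adjusted p from 0.206 to 0.236 from limma. A fall of BOK was also called with siSRSF1-2, as given above. HRK and TRADD each had a log2 fold change of -0.75 and did not pass. Between the siRNAs 0 pathway genes passed, and the genes with the smallest p were XIAP (-0.52), USP9X (-0.90), VDAC2 (0.72), HUWE1 (-0.75) and ATF4 (1.29), with adjusted p of 0.0773 to 0.0792 from limma.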

How the data were processed

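RNA-Seq libraries of U2OS cells were analysed in 4 groups of 3. The supplementary methods describe mRNA selection, paired-end reads and a differential test with DESeq2 by the authors, whereas the labels name another library kit. The aligner, the counter and the human genome build are not given in the sources used here. The authors deposited FPKM per gene and library with gene lengths and coordinates. FPKM times length gave whole reads for 100% of the values (within 0.01 of a read), and the implied library sizes were 0.712 and 0.888 times the reads on genes in siSRSF1-3 replicates 1 and 2 and 0.990 to 1.09 times in the others.

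From these values, log2(FPKM + 0.1) was fitted for the genes whose mean reached 0.5 FPKM (17538 of 58735), on the 6 libraries of a comparison, with limma 3.58.1 in R 4.3.3 (lmFit, and eBayes with a mean-variance trend). Adjusted p-values are Benjamini-Hochberg over all genes tested, with a threshold of 0.05. Fold changes on this scale understate those of low genes. The fit was tested on simulated data with the same dispersion in every group. In the real groups the median SD of the log2 values ran from 0.0771 (siSRSF1-2) to 0.395 (siSRSF1-3). The simulation therefore does not show how the fit behaves with such unequal spreads. Symbols were matched through full names, and BCL2L14 by its identifier. Named were the 10 members, SRSF1, LINC01134 and, in each comparison, the 5 genes with the smallest p among 5 hand-written pathway lists. The gene with the most similar profile was named for 7 of the members (smallest root-mean-square difference over the 12 libraries). XIAP, HUWE1, FBXW7, VDAC2, BIRC5, BOK and HRK with siSRSF1-2 were named after their values were seen. The members and lists were chosen with earlier results of these data known. Alternatives covered the pseudocount (1 and 0.01), filter, scaling and design, voom on the recovered reads, other controls, a replicate block, a loess trend on length (span 0.5), averaged libraries and the omission of each library. Some genes of the lists are counted but their own values are not reported here, and the siRNA sequences were not analysed here.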

Additional observations from a re-analysis of the deposited data

Results flagged for a closer look

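For BAX and BCL2L1 the differences from blank cells pointed opposite ways with the siRNAs. Each siSRSF1-2 library lay below the mean of the blank cells on the log2 scale and each siSRSF1-3 library lay above it. For BCL2L1 this rested on blank replicate 1, since siSRSF1-3 replicate 3 was only 0.014 above the blank mean and, without blank replicate 1, the log2 fold change with siSRSF1-2 turned from -0.15 to 0.025. The difference of siSRSF1-3 minus siSRSF1-2 was 1.43 for BAX (limma adjusted p = 0.0772) and 0.74 for BCL2L1 (limma adjusted p = 0.107), so neither direct difference passed the test. Without siSRSF1-3 replicate 3 the differences were 1.80 and 1.02 and both passed. Without siSRSF1-3 replicate 1 they were 1.18 and 0.47 and neither passed. How many of all tested genes lay on opposite sides of the blank mean in this way was not counted, so the pattern has no background here. Medians of genes of 2000 to 3000 bases, the range of BAX, were -0.10 to -0.08 with siSRSF1-2 and 0.03 to 0.39 with siSRSF1-3. The part of gene length in the pattern was not tested. Over the 22 alternatives the log2 fold change of BAX with siSRSF1-2 ran from -0.40 to -0.0089. Between the siRNAs, 27.0% of all tested genes were higher with siSRSF1-3 without overlap, as were BAX and BCL2L1.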

How the results depend on the processing

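Across the alternatives the direction of the MCL1 rise with siSRSF1-2 held in all 22 (log2 fold change 0.31 to 0.53, limma adjusted p from 0.000475 to 0.9999), and its call was lost in 8, of which 2 average the siSRSF1-2 libraries to 1 sample and call at most 1 gene in all. The number of members called with siSRSF1-2 went from 1 to 0 without the filter on low values, in one fit over all 4 groups, with the siSRSF1-2 libraries averaged to 1, with near-identical libraries averaged in every group (chosen after the data were seen) and with a minimum absolute log2 fold change of 1. It was 2 on own read totals (each library scaled by its reads on genes), 4 with OE-LINC01134 in place of blank cells and 5 at an unadjusted p under 0.05. Of all genes 4793, 4854 and 7063 passed in these settings, beside 4702 as reported. In the one fit the number of members was 3 with siSRSF1-3, 1 with OE-LINC01134 and 4 between the siRNAs, and at an unadjusted p 2, 1 and 4. Leaving out single libraries gave 0 to 4 members with siSRSF1-2, 0 to 4 with siSRSF1-3, 0 to 2 with OE-LINC01134 and 0 to 6 between the siRNAs. Among all genes these omissions gave 1830 to 9147, 0 to 6292, 1 to 4467 and 0 to 10731 calls, beside 4702, 224, 207 and 15. The cause of these shifts was not tested.

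The other counts of all genes, with siSRSF1-2, were 2788 without the filter, 659 in the one fit, 1 with siSRSF1-2 averaged, 0 with near-identical libraries averaged, 868 with the minimum fold change and 7063 unadjusted. With siSRSF1-3 they were 439 and 63 with pseudocounts of 1 and 0.01, 113 without the filter, 1 with FPKM rescaled to the same sum, 69 on own read totals, 665 by voom, 4870 in the one fit, 362 with the length trend removed, 0 with near-identical libraries averaged, 672 against OE-LINC01134 and 5044 unadjusted. With OE-LINC01134 they were 131 with a pseudocount of 0.01, 135 without the filter, 563 by voom, 113 without the variance trend, 1172 in the one fit, 1 with near-identical libraries averaged and 4618 unadjusted. Between the siRNAs they were 123 and 1 with the pseudocounts, 87 without the filter, 41 with a mean FPKM of at least 1, 8 rescaled, 135 by voom, 5658 in the one fit, 110 with the length trend removed, 0 with siSRSF1-2 averaged, 0 with near-identical libraries averaged and 7390 unadjusted.

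Same-numbered libraries did not deviate together (correlations of -0.08 to 0.04), so the numbers were not taken as pairs. With the replicate block 1, 0, 0 and 0 members passed (MCL1, limma adjusted p = 0.0396), and 2476, 0, 4 and 0 of all genes.

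Rescaling FPKM to the same sum moved the median over all genes, on the log2 scale, from 0.02 to 0.15 with siSRSF1-2, from -0.01 to -0.43 with siSRSF1-3, from 0.05 to 0.14 with OE-LINC01134 and from -0.02 to -0.57 between the siRNAs, and own read totals moved the second and the fourth to -0.26 and -0.31. The split of higher against lower calls moved with it, from 2452 and 2250 to 3692 and 1566 with siSRSF1-2, from 79 and 128 to 151 and 132 with OE-LINC01134, and from 60 and 164 to 11 and 58 with siSRSF1-3 on own read totals.

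The differences that changed sign had not passed the test as reported, and 1 of the changed values passed (BAK1 with siSRSF1-2 against OE-LINC01134, limma adjusted p = 0.00748). With siSRSF1-2, BAK1 went to 0.11 when rescaled, 0.026 on own read totals, 0.091 with the length trend removed and 0.54 against OE-LINC01134, PMAIP1 to 0.058 when rescaled and 0.036 with the trend removed, BCL2 to -0.10 with the trend removed and -0.067 with near-identical libraries averaged, and BBC3 to -0.19 against OE-LINC01134. With siSRSF1-3, MCL1 went to -0.36 when rescaled and -0.17 on own read totals, BBC3 to -0.051 and BID to -0.18 when rescaled, BCL2 to 0.22 with the trend removed and BAK1 to 0.34 against OE-LINC01134. With OE-LINC01134, PMAIP1 went to 0.040 when rescaled and 0.037 with the trend removed, BID to -0.0014 on own read totals and -0.014 with near-identical libraries averaged, and BCL2 to -0.043 with the trend removed and -0.20 with near-identical libraries averaged. Between the siRNAs, BBC3 went to -0.30 when rescaled and -0.033 on own read totals, and BCL2 to 0.32 with the trend removed. Single omissions turned, with siSRSF1-2, BCL2 (-0.12 to 0.27), BCL2L1 (-0.26 to 0.025), BAK1 (-0.071 to 0.052) and PMAIP1 (-0.13 to 0.024), with siSRSF1-3, BCL2 (-0.22 to 0.17) and MCL1 (-0.015 to 0.14), and with OE-LINC01134, BCL2 (-0.15 to 0.24), PMAIP1 (-0.10 to 0.048), BCL2L11 (-0.29 to 0.077), BID (-0.074 to 0.094) and BAD (-0.26 to 0.014). Depth limits BCL2 and BCL2L11 most, since BCL2L11 rests on 158 reads and BCL2 on 274 in their lowest libraries.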

Other observations

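The gene whose profile over the 12 libraries was most like a member's, each centred on its own mean, was negative elongation factor complex member E for BAX, with a root-mean-square difference of 0.086 on the log2 scale. The nearest gene was mitochondrial ribosomal protein L55 for BAD (0.080), ribonuclease P/MRP subunit p38 for BCL2L1 (0.065), transmembrane protein 43 for PMAIP1 (0.058), ubiquitin family domain containing 1 for BCL2L11 (0.069) and succinate dehydrogenase complex iron sulfur subunit B for BID (0.075). For MCL1, whose own SD was 0.19, the nearest gene was EGF domain specific O-linked N-acetylglucosamine transferase (0.063). Libraries that stand apart shape these profiles, so the distances are given as a description with no test.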
